A study of Mus musculus with 13 samples.

Results

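Collagens and laminins are the main structural proteins of the extracellular matrix, and the genes that encode their chains were followed here in the olfactory bulb of mice exposed to fine particulate matter (PM2.5, fine airborne particles). A gene was included when its symbol was Col or Lam followed by a chain number, in the forms Col1a1 and Lama1. Of the 34745 genes in the table, 55 met this rule, 44 collagen chains and 11 laminin chains. They were divided by the structure their protein builds into 11 fibrillar chains, 17 basement membrane chains (6 of type IV collagen and the 11 laminins) and 27 other chains.

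The mice were wild type, labelled C57BL/6, aged 7 to 8 weeks, and described for the series as male C57BL/6J. The labels give a 1st set, with 4 untreated control libraries and 3 libraries of mice given PM2.5 at 3 mg/kg/3 day (here the low dose), and a 2nd set, with 3 untreated controls and 3 libraries at 10 mg/kg/3 day (the high dose). What "/3 day", 1st and 2nd stand for, and how PM2.5 was given, is not given in the sources used here. The labels do not say how replicates were drawn, so p-values measure only the spread between these samples. Total counts were 13.03 to 14.1 M per library in the controls of the 1st set, 14.3 to 14.7 M at the low dose, 15.39 to 26.99 M in the 2nd set's controls and 20.2 to 25.5 M at the high dose.

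The 1st set went against the single description of sex, male, while the 2nd set did not. Xist, which silences an X chromosome in female cells, ranged over 2280 to 2784 CPM (counts per M counts) in the 7 libraries of the 1st set, but only 0.0977 to 0.551 CPM in the 6 of the 2nd. The summed Y-linked genes stood at 0 to 0.213 CPM and at 173 to 226 CPM. Each dose was therefore compared only with the controls of its own set, and dose, set and sex cannot be told apart between the doses. Markers of olfactory bulb neurons (Th, Cdhr1, Tbx21, Eomes, Calb2, Meis2 and Sp8) summed to between 2070 and 2550 CPM across all libraries, so the labelled tissue was represented in each.

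Every collagen is a trimer of chains wound into a triple helix. Fibrillar collagens form the cables of connective tissue, which in the brain lie mainly in the meninges and around larger vessels. Type IV collagen forms a sheet-like network, and laminins, trimers of an alpha, a beta and a gamma chain, form a second network with it in the basement membranes of vessels and of the brain surface. The other collagens include type VI, which builds beaded microfilaments, the fibril-associated chains (FACITs), the multiplexins Col15a1 and Col18a1, which lie beside basement membranes, and transmembrane chains.

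The DNA just before the start of 4 chains is shown because these chains, 1 fibrillar, 1 laminin, 1 multiplexin and 1 of type IV, stood lower together in the controls of the 2nd set, as described further on. They were chosen after the values were seen, among windows that overlap no annotated exon. Each run holds the 250 bases before the RefSeq start on GRCm38.p6, 5′ to 3′ on the strand of the gene, at chr1:45311288-45311537 (plus strand) for Col3a1, chr2:180225860-180226109 (minus strand) for Lama5, chr4:47207762-47208011 (plus strand) for Col15a1 and chrX:141474077-141474326 (minus strand) for Col4a6. Capitals mark matches on either strand to the core promoter element TATAAA and to GGGCGG, which Sp transcription factors are known to bind.
Col3a1: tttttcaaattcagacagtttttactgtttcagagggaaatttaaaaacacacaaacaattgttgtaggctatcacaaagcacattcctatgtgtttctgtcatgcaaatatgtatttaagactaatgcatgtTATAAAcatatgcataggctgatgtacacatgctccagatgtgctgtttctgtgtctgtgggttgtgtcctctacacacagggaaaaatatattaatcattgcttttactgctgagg
Lama5: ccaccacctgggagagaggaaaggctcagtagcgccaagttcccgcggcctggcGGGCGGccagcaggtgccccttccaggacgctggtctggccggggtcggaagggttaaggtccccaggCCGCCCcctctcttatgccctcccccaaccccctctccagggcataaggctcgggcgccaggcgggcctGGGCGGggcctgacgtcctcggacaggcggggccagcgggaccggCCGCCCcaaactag
Col15a1: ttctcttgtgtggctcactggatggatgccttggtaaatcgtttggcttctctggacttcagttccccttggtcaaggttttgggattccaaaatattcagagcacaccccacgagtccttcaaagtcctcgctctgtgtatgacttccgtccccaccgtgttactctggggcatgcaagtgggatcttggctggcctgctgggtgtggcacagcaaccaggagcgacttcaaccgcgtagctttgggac
Col4a6: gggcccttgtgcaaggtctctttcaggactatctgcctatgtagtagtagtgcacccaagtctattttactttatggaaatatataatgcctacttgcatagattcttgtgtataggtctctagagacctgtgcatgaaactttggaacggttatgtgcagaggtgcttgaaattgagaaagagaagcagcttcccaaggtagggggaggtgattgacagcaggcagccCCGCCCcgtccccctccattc
Col3a1 held a TATAAA match, Lama5 and Col4a6 held GGGCGG matches, and Col15a1 held neither of these nor CCAAT. RefSeq windows of 300 bases, 250 before to 50 after the start, were at hand for 40 of the 55 chains, in 44 windows. GGGCGG was found in 59.1% of these against 35.7% of 32851 windows over all genes, CCAAT in 31.8% against 37.4%, and TATAAA in 11.4% against 13.6%, on either strand and with overlap between motifs allowed. Such a match is a description of letters and not a binding site.

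Levels of different chains were compared per length, as FPKM (fragments per kilobase, scaled to depth), over the 7 control libraries. Col6a1, the alpha 1 chain of the type VI microfilament, was highest at a mean of 30.5 FPKM. It was followed by the ubiquitous type IV pair Col4a1 (8.31 FPKM) and Col4a2 (8.19), by Lama3 (7.14), the alpha chain of the epithelial laminin that anchors hemidesmosomes, and by Lamc1 (6.96) and Lamb2 (6.50), the gamma 1 and beta 2 chains of vascular laminins. Among fibrillar chains Col1a1 (5.85 FPKM) and Col24a1 (3.88) led, followed by Col1a2 (2.47) and Col5a1 (2.06). Among the other chains Col6a1 was followed by the transmembrane chain Col23a1 (5.49 FPKM) and the FACITs Col12a1 (2.57) and Col20a1 (2.50). The order differed between the sets. In the controls of the 1st set Col1a1 (9.03 FPKM, with 19.2 FPKM in control 1), Lamc1 (8.75) and Lamb2 (8.65) lay above Lama3 (6.88). In those of the 2nd set Lama3 (7.49 FPKM) came next after Col6a1 (25.9), above Col4a2 (6.65) and Col4a1 (6.61), and Col24a1 (2.60) exceeded Col1a1 (1.61), Col5a1 (1.45) and Col1a2 (0.85). The length implied by the deposited FPKM exceeded the longest GENCODE transcript by more than 1.5 times for 19 of 55 chains. Col1a2 was the clearest case among the abundant chains, at 16209 against 5348 bases, and per kilobase of the longest transcript its level was 7.40 against 6.76 for Col1a1. The order of these chains thus depends on the length used. Col10a1, Col17a1 and Col6a5 had at most 13, 18 and 9 counts in any library and did not pass the filter on low counts, which left 52 chains for the tests.

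Chains that share a trimer did not all run in parallel. Col4a1 and Col4a2, which lie head to head on chromosome 8 with gene bodies overlapping by 22 bases, held a FPKM ratio of 0.92 to 1.09 in the 13 libraries, with a median of 1.01. For Col1a1 over Col1a2, the alpha chains of type I collagen, the ratio ran from 1.62 to 3.84 in FPKM but from 0.63 to 1.48 (median 0.75) per longest transcript, so which chain was higher depends on the length. Col6a1 exceeded Col6a2 at a median ratio of 14.7 (range 12.6 to 21.6), or 9.45 per longest transcript, and Col6a3 lay under Col6a2 at a median of 0.19. Lama3 exceeded its known partner Lamb3, with a median ratio of 25.4, or 15.6 per longest transcript. The head-to-head pair Col4a4 and Col4a3 on chromosome 1, separated by 71 bases, was at low level and had a ratio of Col4a3 to Col4a4 of 0.27 to 1.46.

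**Figure D1:**
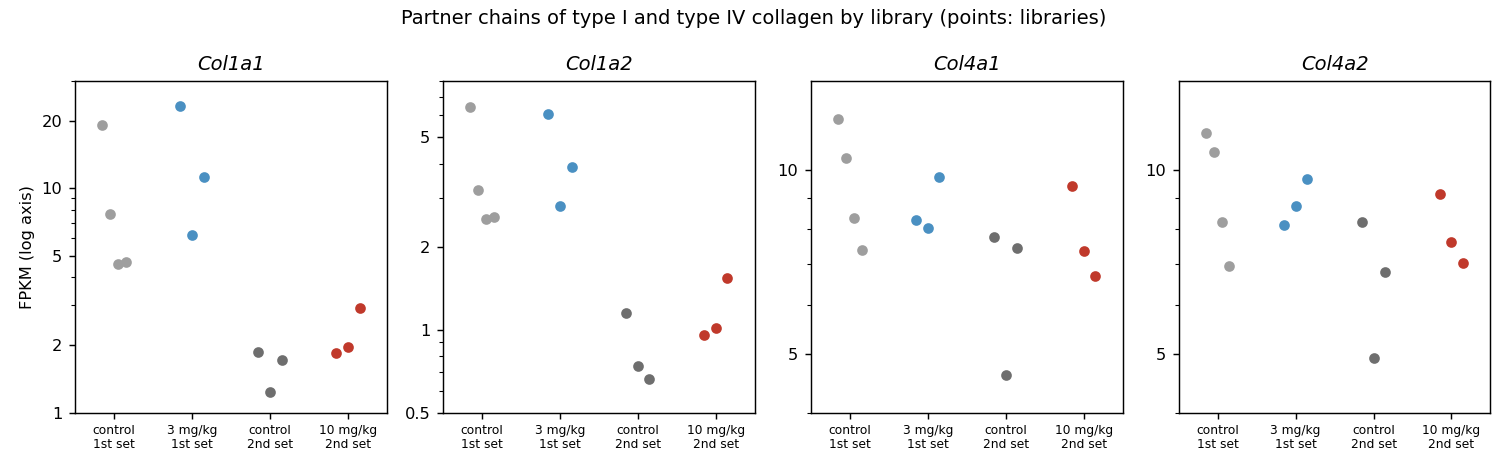
FPKM (log axes, which differ between panels) of the type I chains Col1a1 and Col1a2 and the type IV chains Col4a1 and Col4a2 in each library, 1 point per library, by group. Both type I chains are lower in all 6 libraries of the 2nd set than in all 7 of the 1st, while the type IV chains overlap between sets.

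No chain passed the test at the low dose. In edgeR's quasi-likelihood test with Benjamini-Hochberg adjustment over all genes, 0 of 52 chains were called at an adjusted p under 0.05, as were 0% of the 17467 genes tested. The DESeq2 Wald test and limma also called 0 chains. Lamb3, the beta partner of Lama3, and Col15a1 were the 2 chains under an unadjusted p of 0.05 in edgeR, where 2.46% of all genes were. Fold changes of the chains leaned to lower values, with 39 of 52 negative (75.0%) against 49.0% of all genes, and a median log2 fold change of -0.15 against 0.00. The median was -0.16 for fibrillar chains (7 of 11 negative), -0.11 for basement membrane chains (13 of 17) and -0.17 for other chains (19 of 24), and all 6 type IV chains were negative. The median standard error of a single chain was 0.22.

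Seen by library, the low-dose class medians overlapped the controls. For each library, the median difference of a class from the mean of the controls was taken on the log2 scale. Fibrillar chains stood at -0.26, -0.26 and 0.20 in low-dose libraries 1 to 3 and between -0.27 and 0.20 in the 4 controls. Basement membrane chains stood at -0.18, -0.07 and 0.01, against -0.11 to 0.03 in controls. Other chains stood at -0.33, -0.11 and -0.07, against -0.22 to 0.22. Library 1 lay below the lowest control for basement membrane and other chains, and the remaining low-dose values lay within the controls or at their edge.

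**Figure D2:**
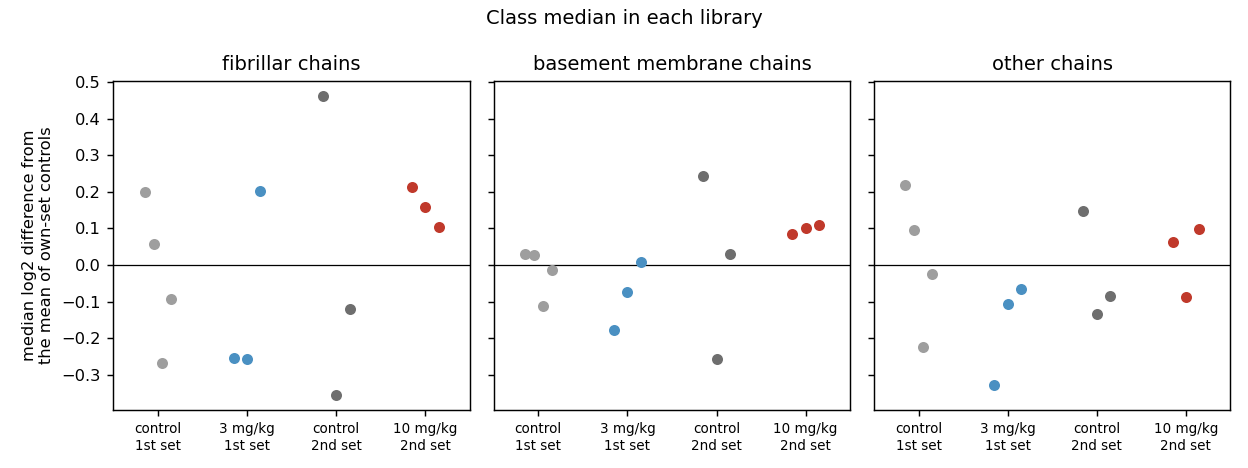
Median log2 difference of the fibrillar (11), basement membrane (17) and other (24) chains from the mean of the controls of the same set, 1 point per library. Low-dose and high-dose libraries overlap the controls of their set in every class, and the 3 controls of the 2nd set spread most widely for fibrillar chains (-0.36 to 0.46).

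Of the single chains at the low dose, Lamb3 and Col15a1 had the smallest p. Lamb3 stood at 1.51, 1.97, 1.82 and 1.77 CPM in the controls and 2.2, 3.54 and 2.03 CPM in the exposed libraries, and its log2 fold change was 0.55 ± 0.25 (SE). It was the 1 chain whose exposed libraries all lay above the controls (3.71% of all genes did so). Lamb3 had only 20 to 51 counts in these libraries and overlaps G0s2, Hsd11b1, Gm37650 and Gm38118 on the opposite strand. With the strand setting of the counting not given, their reads cannot be told apart from its own. All exposed libraries of Col14a1 and Col15a1 lay below the controls (2.91% of all genes did so), and the Col15a1 values are given further on. Of the type I chains, Col1a1 stood at 131, 52.6, 31.3 and 31.7 CPM in controls and 158, 42.7 and 77 CPM at the low dose, with a log2 fold change of 0.59 ± 0.55 (SE). Control 1 and low-dose library 1 thus held the highest type I collagen of their groups. Control 1 also had the highest sum of 7 markers of respiratory and skin epithelium, 31.97 CPM, where the low-dose libraries had 6.38 to 10.3 CPM. Most of it came from Cyp2a5, an enzyme of nasal and liver tissue, at 23.3 CPM, while the keratins and Epcam were each at 0.983 CPM or less. The part of such tissue in the type I values was not tested. Other fibrillar chains with the smallest p were Col11a1 at -0.27, Col2a1 at -0.44 and Col27a1 at -0.26. Among basement membrane chains Lamc3 stood at -0.39 and Col4a6 at -0.35, among other chains Col18a1 at -0.43 and Col14a1 at -0.38, and none of these log2 fold changes was called.

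At the high dose 1 chain fell and none rose. Lama3 was the only one of 52 chains called by edgeR's quasi-likelihood test, where 0.641% of all genes were called, 0.521% higher and 0.12% lower. At an unadjusted p under 0.05 there were 8 chains, against 9.65% of all genes. The signs of the chains leaned the other way from the low dose, with 32 of 52 positive. Only 20 were negative (38.5%), against 52.8% of all genes. The median log2 fold change was 0.12 over all chains and -0.01 over all genes. It was 0.16 for fibrillar chains, 0.18 for basement membrane chains and 0.04 for other chains, with a median standard error of a single chain of 0.24. Without the deepest control and the deepest exposed library of the set, the fibrillar and other medians turned to -0.0465 and -0.30. In 5 chains, Col16a1, Col9a2, Col9a3 and Lamc3 among them, every exposed library lay above all controls, where 6.08% of all genes did so, and in 3 every one lay below (Col15a1, Col26a1 and Lama3), where 4.36% did. By library the class medians overlapped the controls. Fibrillar chains stood at 0.21, 0.16 and 0.10 against -0.36 to 0.46 in controls, and basement membrane chains at 0.08, 0.10 and 0.11 against -0.26 to 0.24.

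Lama3 (chr18:12333819-12583013, mm10, plus strand) was at 79.3, 57.4 and 109 CPM in the 2nd set's controls and at 41.4, 43.6 and 28.9 CPM in the high-dose libraries. The groups did not overlap, and the lowest control exceeded the highest exposed library. Means were 81.9 ± 25.9 and 38.0 ± 7.92 CPM (SD, n = 3 each), a log2 fold change of -1.11 ± 0.21 (SE) with an edgeR adjusted p of 0.0283. In the 1st set it was at 72.9, 61.9, 72 and 83.7 CPM in controls and 60.9, 68.2 and 72.7 CPM at the low dose, overlapping ranges with a log2 fold change of -0.11. The call was lost in limma on log2(FPKM + 1) (adjusted p = 0.0682) and log2(FPKM + 0.1) (0.0575), in a separate fit within each set (0.294) and without the 2 libraries of the 1st set highest in Col1a1 (0.0878), and the DESeq2 Wald test kept it. Without single libraries its fold change stayed between -1.33 and -0.85, but the adjusted p rose to between 0.0533 and 0.114 without low-dose library 1, control 1 or 3 of the 2nd set, or any 1 of the high-dose libraries. The counting is not stated to use strand, and 3 annotated genes (Gm22340, Gm29199 and Gm29200) overlap Lama3 on the opposite strand, so their reads cannot be told apart from its own.

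Lamb3, the beta partner of Lama3, had a log2 fold change of 0.03 at the high dose and did not pass the test. The summed markers of some other cells also differed between these groups of libraries. The sum of 7 olfactory bulb neuron markers was 2235 to 2550 CPM in controls and 2092 to 2196 CPM at the high dose, lower without overlap, with 0 of the 7 called. Astrocyte markers summed to 2852 to 3700 and 3690 to 3968 CPM, ranges that overlapped. The sum of 8 markers of neighbouring cortex and striatum was 215 to 256 CPM in controls and 273 to 313 CPM at the high dose, without overlap. That of 5 red blood cell genes was 97.2 to 119 and 114 to 302 CPM, with overlap. In each of these lists 0 markers were called at the high dose, where 0.641% of all genes were called. Their part in the Lama3 value was not tested. The respiratory and skin epithelium markers summed to 2.32 to 8.21 CPM in controls and 1.04 to 5.94 CPM at the high dose. In bulk tissue, fewer cells of a type and less RNA per cell cannot be told apart.

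**Figure D3:**
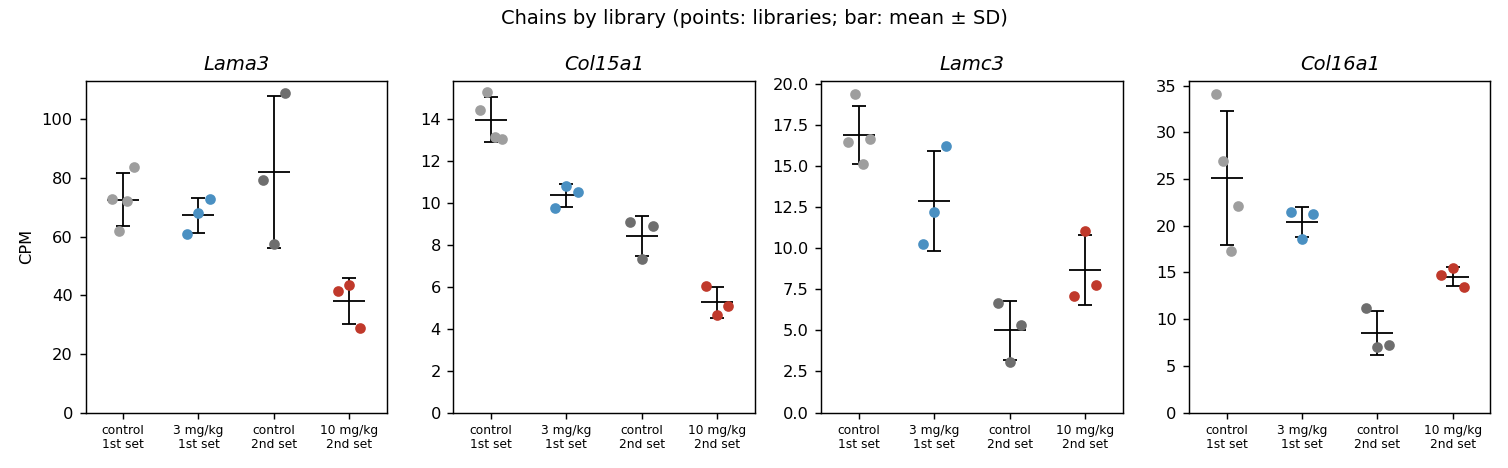
CPM (linear axes from 0) of Lama3, Col15a1, Lamc3 and Col16a1 in each library, with the group mean and SD. Lama3 is low in the high-dose group only, Col15a1 is below the controls of its set at each dose, and Lamc3 and Col16a1 are lowest in the controls of the 2nd set.

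The chains next in order of p at the high dose did not pass the test. Col16a1, a FACIT, stood at 11.2, 7.03 and 7.22 CPM in controls and 14.7, 15.4 and 13.4 CPM in exposed libraries, with a log2 fold change of 0.79 ± 0.22 (SE; edgeR adjusted p = 0.169). Lamc3, a gamma chain of laminins at the meninges and in neural tissue, stood at 6.64, 3.09 and 5.31 against 7.1, 11.1 and 7.78 CPM, with 0.81 ± 0.26 (SE; edgeR adjusted p = 0.230). These exposed libraries lay above the controls of the set but below every control of the 1st set for both genes. Other chains with the smallest p were Lama1 at a log2 fold change of 0.45, Col9a2 at 0.57 and, of the fibrillar chains, Col5a3 at 0.75, Col11a1 at 0.28 and Col2a1 at 0.48. Col18a1, whose C-terminal fragment is endostatin, was at 0.68, and Col26a1 at -0.70. The type I chains Col1a1 and Col1a2 were at 0.50 and 0.46, and the type IV chains Col4a1 and Col4a2 at 0.25 and 0.26, values within their spread between libraries.

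**Figure D4:**
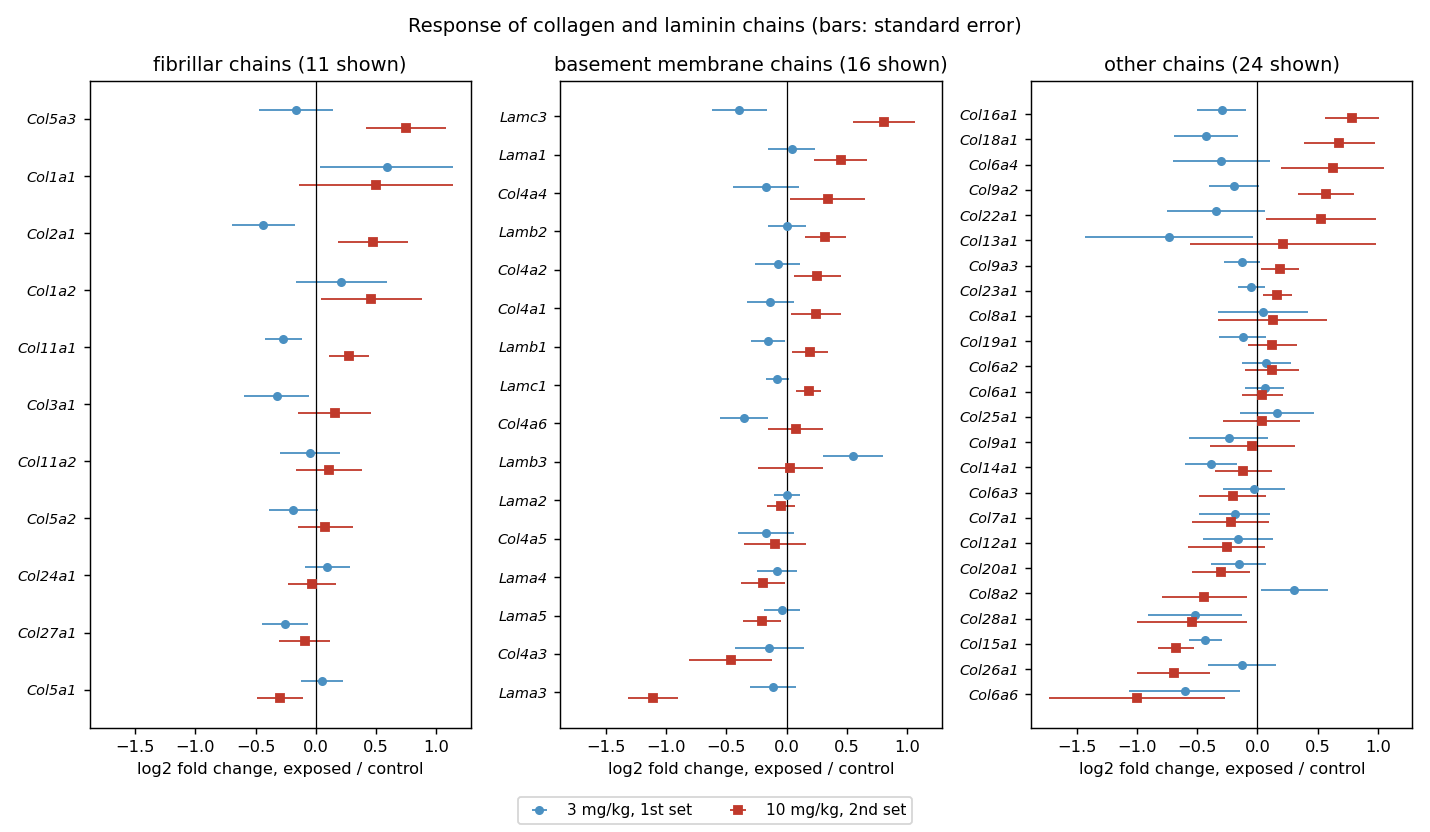
Log2 fold change of 51 of the 52 tested chains at the low dose (circles) and the high dose (squares) against the controls of its own set, with the standard error, sorted by the high-dose value within each class. Most bars cross or approach 0, and Lama3 at the high dose (-1.11) lies farthest below it.

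Col15a1 stood lower at both doses. Col15a1 (chr4:47208161-47313167, mm10, plus strand), the chain of type XV collagen, was at 14.4, 15.3, 13.1 and 13 CPM in controls of the 1st set and 9.75, 10.8 and 10.5 CPM at the low dose. In the 2nd set it was at 9.08, 7.3 and 8.89 CPM in controls and 6.05, 4.63 and 5.07 CPM at the high dose. In each set every exposed library lay below every control. Its log2 fold changes were -0.43 ± 0.14 and -0.68 ± 0.15 (SE), and by edgeR neither passed alone, with an adjusted p of 1 and of 0.0586. The mean of the responses was -0.55 ± 0.10 (SE), with an edgeR adjusted p of 0.0244. It was the only chain called for the mean, where 0.492% of all genes were called and 0.0687% were called lower. It and Lama3 were the 2 chains under an unadjusted p of 0.05 for the mean, against 6.45% of all genes. The call for the mean was lost in limma on log2(FPKM + 1) (adjusted p = 0.0645) and log2(FPKM + 0.1) (0.0723), and without the 2 libraries of the 1st set highest in Col1a1 (0.196). It was also lost, at an adjusted p of 0.0570 to 0.1001, without control 1 or 2 or low-dose library 1 or 3 of the 1st set, or control 1 or 3 or high-dose library 2 or 3 of the 2nd, while the value without any 1 library stayed between -0.61 and -0.52. At the high dose alone it was called by the DESeq2 Wald test (adjusted p = 0.00847) and without control 2 of the 2nd set (edgeR adjusted p = 0.0328). The gene overlaps Gm12426 on the opposite strand. Its class mate Col18a1 had log2 fold changes of -0.43 and 0.68. Endothelial markers summed to 327 to 376 CPM in controls of the 1st set, 328 to 338 CPM at the low dose, 229 to 325 CPM in the 2nd set's controls and 258 to 313 CPM at the high dose, ranges that overlapped within each set. Single markers of that list went both ways. Kdr, a receptor for VEGF, had a log2 fold change of -0.44 at each dose. Ly6c1 stood at 0.43 (low dose) and 0.44 (high dose). The median of the 10 markers was -0.07 (low dose) and 0.03 (high dose), and none was called at a dose. The summed markers of neighbouring cortex and striatum were higher without overlap at each dose. Sums were 223 to 240 CPM in controls of the 1st set and 246 to 259 CPM in low-dose libraries. Those of the 2nd set are given above. The median log2 fold change of these 8 markers was -0.07 (low dose) and 0.49 (high dose), with 0 called. The low-dose sum was thus not matched by the median marker. The part of either marker list in the Col15a1 values was not tested.

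Between the doses, no chain's response differed past the threshold. The difference of the responses, high dose minus low dose, was called in 0 of 52 chains by edgeR, and in 0.00573% of all genes. The DESeq2 Wald test and limma also called 0 chains, and 8 chains were under an unadjusted p of 0.05 by edgeR, against 5.99% of all genes. Among these were Lamc3 with a difference of 1.20 ± 0.34 (SE), Col18a1 with 1.11, Col16a1 with 1.08, Col2a1 with 0.91, Col9a2 with 0.76, Col11a1 with 0.55 and Lama3 with -0.998. Of the 52 chains 23 were negative at the low dose and positive at the high dose, 16 negative at both, 9 positive at both and 4 positive at the low dose and negative at the high. The median difference was 0.25 for fibrillar chains, 0.32 for basement membrane chains and 0.06 for other chains, against -0.01 for all genes.

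Most calls among the chains lay between the control groups rather than with exposure. With the controls of the 2nd set compared to the 1st, 33 of 52 chains were lower and 0 higher by edgeR's quasi-likelihood test, where 8.74% of all genes were called lower. Fold changes were negative for 51 of 52 chains (98.1%) against 52.0% of all genes, with a median of -0.89 on the log2 scale against -0.02. In 38 chains every control of the 2nd set lay below every control of the 1st, as in 14.6% of all genes. Among the controls of the 2nd set, control 2 had the lowest median of fibrillar (-0.36), basement membrane (-0.26) and other chains (-0.13). The count of chains called fell to 19 without this library, and to 25 without the control and low-dose libraries highest in Col1a1. In these settings also no chain was higher. Of the 33 chains, 19 stayed called in every setting that gave a value, among them Col3a1, Col4a6 and Col15a1, while Lama5 and Col1a1 did not.

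Nearly all fibrillar chains were lower in the controls of the 2nd set. Of 11, 10 passed the test, where 8.74% of all genes were called lower. The median was -1.22, and Col5a3 at -0.87 did not pass. Col1a1 stood at 13.1, 8.89 and 12 CPM in the controls of the 2nd set, below the 31.3 to 131 CPM of the 1st, with a log2 fold change of -2.45 ± 0.62 (SE; edgeR adjusted p = 0.0238). Col1a2 fell between the groups by 2.06 on the log2 scale, and Col3a1, the chain of type III collagen, by 1.67. The cartilage-type and cable-forming chains Col2a1, Col11a1, Col11a2, Col5a1, Col5a2, Col24a1 and Col27a1 had log2 differences between -1.39 and -0.76.

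Of the basement membrane chains 12 of 17 were lower (8.74% of all genes), with a median of -0.76. Among the laminins 8 of 11 were lower, led by Lamc3 at -1.77 ± 0.25 (SE), Lama1, an alpha chain of the brain surface, at -1.58, and Lamb2 at -1.21. Lamc1, the gamma chain shared by most vascular laminins, was at -0.88 ± 0.10 (SE) with the smallest adjusted p of the chains (edgeR, 0.0002). Lama2, Lama4, Lama5 and Lamb1 lay between -0.76 and -0.48. Lama3, at 0.17, was the only chain with a positive value and did not pass, nor did Lamb3 at -0.21. Of type IV, Col4a3, Col4a4, Col4a5 and Col4a6 were lower, at -1.10, -1.26, -1.11 and -1.70, while the abundant Col4a1 at -0.49 and Col4a2 at -0.44 did not pass.

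Of the other chains 11 of 24 were lower (8.74% of all genes), with a median of -0.83. They were the FACITs Col16a1 at -1.57, Col9a2 at -1.45, Col12a1 at -1.27 and Col14a1 at -0.88, the multiplexins Col18a1 at -1.52 and Col15a1 at -0.73, and the short-chain collagens Col8a2 at -1.77 and Col8a1 at -1.63. The transmembrane chain Col23a1 was at -0.77, Col28a1 at -1.33 and Col6a6 at -2.40. Col6a6 was near the floor, at means of 1.55 CPM in controls of the 1st set and 0.302 CPM in those of the 2nd. The abundant type VI chain Col6a1, with 133 to 169 CPM in controls of the 1st set and 126, 105 and 129 CPM in those of the 2nd, was at -0.33 and did not pass, nor did Col6a2 at -0.62 and Col6a3 at -0.72. The contrast of the classes was thus one of counts and medians; no test between the classes was made.

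**Figure D5:**
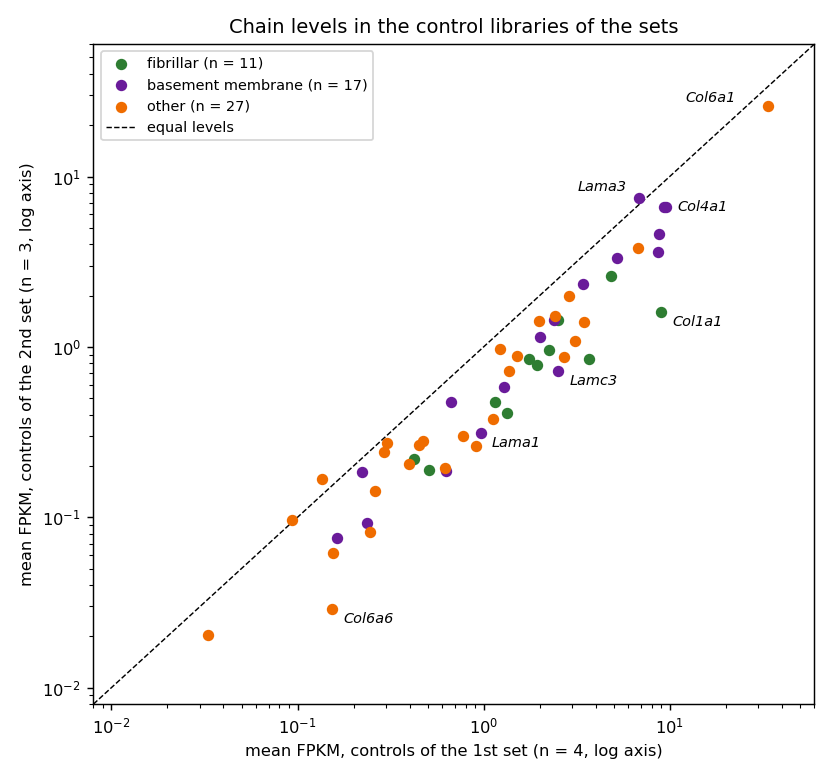
Mean FPKM of each of the 55 chains in the controls of the 1st set (n = 4, horizontal log axis) and of the 2nd set (n = 3, vertical log axis), colored by class, with the line of equal levels. Nearly all chains lie below the line, Col1a1 and Col6a6 among the farthest and Lama3 just above it.

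Some markers of cells that make matrix were also lower in this contrast. Of 9 tested markers of meningeal and perivascular fibroblasts 5 were lower in the 2nd set's controls, where 8.74% of all genes were called lower. The list summed to between 222 and 273 CPM in the 1st set and 119 to 182 CPM in the 2nd. Of 11 pericyte and smooth muscle markers 9 were lower, with sums of 358 to 421 and 225 to 316 CPM. Of 10 endothelial markers 4 were lower, with sums of 327 to 376 and 229 to 325 CPM. Of 7 astrocyte markers 0 were called, where 19.3% of all genes were called in either direction. No marker of these lists was at 0 in all libraries. Their part in the chain values was not tested, and set and sex cannot be told apart in this contrast.

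The enzymes and proteins that act on the chains were counted from lists. At the low dose 0 genes of any of the 6 lists were called by edgeR, as were 0% of all genes. At the high dose 0.641% of all genes were called. A count of 0 in lists this short therefore does not set them apart from all genes. Of 20 genes for collagen modification and folding in the endoplasmic reticulum, 0 were called at the high dose (median log2 fold change 0.04). Plod3, a lysyl hydroxylase, at 0.31 and Colgalt1, a collagen galactosyltransferase, at 0.21 had the smallest p. Of these 20 genes 3 were lower and 1, the prolyl hydroxylase subunit P4ha1, higher in controls of the 2nd set, with a median of -0.19, where 8.74% of all genes were lower and 10.5% higher. The enzymes that fold collagen thus showed a smaller median difference between the sets than the chains themselves, a comparison of medians with no test.

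Among 17 tested genes of procollagen processing and crosslinking 1 was called at the high dose, where 0.641% of all genes were called. This was Tgm2, a transglutaminase that crosslinks matrix proteins, which rose. It went from 13.9 ± 3.57 to 33.1 ± 12.1 CPM (SD, n = 3 each), a log2 fold change of 1.25 ± 0.25 (SE; edgeR adjusted p = 0.0372), and its mean response was 0.91 (adjusted p = 0.0283). The high-dose call was lost without any 1 of 4 libraries of the 2nd set (controls 2 and 3, high-dose 2 and 3) or of 5 of the 1st (controls 1, 2 and 4, low-dose 1 and 3), at an adjusted p of 0.0517 to 0.159, and its fold change then stayed between 0.92 and 1.33. The median of the list at the high dose was 0.31. Between controls 8 of the 17 were lower, where 8.74% of all genes were, with a median of -0.75. They included Bgn, the proteoglycan biglycan, at -1.10 and Loxl2, a lysyl oxidase, at -1.92. Loxl2 was near the floor, at means of 0.97 CPM in the 1st set's controls and 0.23 CPM in the 2nd's, with at most 22 counts in any library.

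Of 16 other basement membrane proteins 0 were called at the high dose, where 0.641% of all genes were called. Ntn4 at -0.41 and Fbln1 at 0.66 had the smallest p. Between controls 11 were lower and 1, Ntn4, higher (8.74% and 10.5% of all genes), with a median of -0.81. Hspg2, the heparan sulfate proteoglycan perlecan, was at -1.78, and Nid1, the nidogen that links laminin to type IV collagen, at -0.85. Of 14 tested receptors 0 were called at the high dose (0.641% of all genes), with Itga6 at 0.40 and Bcam at 0.32 first by p. Between controls 8 of the 14 were lower (8.74% of all genes), with a median of -0.65. Of 22 tested proteases and inhibitors 0 were called at the high dose (0.641% of all genes). Timp1, an inhibitor of matrix metalloproteinases, was at 2.71 ± 0.65 (SE; edgeR adjusted p = 0.088) and did not pass, and Plat was at 0.36. Timp1 was near the floor, at means of 0.247 CPM in the 2nd set's controls and 1.72 CPM at the high dose. Between controls 4 of the 22 were lower, where 8.74% of all genes were. Of 17 TGF-beta and matricellular genes 0 were called at the high dose (0.641% of all genes), with Ctgf at -0.58 and Tgfbr2 at 0.42 first by p. Between controls 9 of the 17 were lower and 3 higher (8.74% and 10.5% of all genes). Of 9 tested fibroblast markers 1 was called at the high dose, where 0.521% of all genes were called higher. The median of these markers was 0.31 on the log2 scale, with Ogn at -0.48 and Igf2 at -0.03. The marker called was Aldh1a2, the retinal dehydrogenase of the meninges, at 1.12 (edgeR adjusted p = 0.0278). Aldh1a2 was at 8.996 ± 3.27 CPM in controls and 19.6 ± 3.12 CPM in exposed libraries (SD, n = 3 each). Its mean in the controls of the 1st set was 20.5 CPM. Its call was lost without control 3 or high-dose library 2 or 3 of the 2nd set or control 2 of the 1st (adjusted p 0.0516 to 0.0704). The list summed to 119 to 182 CPM in controls and 147 to 242 CPM in exposed libraries.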

How the data were processed

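RNA of 13 olfactory bulb samples was isolated with RNeasy mini columns and made into stranded total RNA libraries, per the labels. The submitters' processing notes name HISAT2 and mm10. The authors deposited a raw count and an FPKM value per gene and library; the counting program, strand setting and annotation: not given in the sources used here. The count divided by the FPKM and the library total was constant per gene (largest relative deviation 6.14e-06 over 10968 genes with at least 100 counts), and was taken as the length behind the deposited FPKM. Coordinates of 52 of the 55 chains were identical in GENCODE M21, and 23 chains overlap a gene on the opposite strand.

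Counts were tested with edgeR 4.0.16 in R 4.3.3 (TMM scaling, filterByExpr by group, robust quasi-likelihood fit) in 1 fit of 4 groups with 9 residual degrees of freedom. Of 34745 genes 17467 passed the filter. Benjamini-Hochberg adjustment ran over all of these, and genes were called at an adjusted p under 0.05. Log2 fold changes have approximate standard errors (the fold change over the square root of F), and CPM is scaled by TMM except for Xist and Y-linked genes, given per raw total. Libraries of a group were compared before averaging (log CPM correlation 0.97 to 0.986), and none agreed within sampling noise. Chi-square per gene was 5.99 to 9.88 in the 1st set and 13.5 to 45.9 in the deeper 2nd set. The fit nevertheless shared 1 estimate of the spread between the sets. The script was tested on simulated data.

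Alternatives were DESeq2 1.42.0 size factors and Wald test, other filters on low counts (none, or 1 CPM in every library), limma 3.58.1 on log2(FPKM + 1) and log2(FPKM + 0.1), separate fits, a replicate block, other class membership and leaving out libraries. The members and lists were chosen with earlier results of these data known. Named chains are those called in any contrast, the 3 of each class and dose with the smallest p, the 4 of each class highest in FPKM, and their trimer partners. From each list the genes called at a dose, or else the 2 with the smallest p at the high dose, are named. Chains given for the difference, for libraries that do not overlap and for their promoters, and list genes given between controls, were chosen after their values were seen. Values of 1 chain are not reported here.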

Additional observations from a re-analysis of the deposited data

Results flagged for a closer look

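Col20a1, a fibril-associated chain, stood apart in 1 library. In control 3 of the 1st set it was at 10.13 CPM, while the other controls of that set were at 13.2, 13.4 and 13.8 CPM. The gap to the nearest control exceeded the 95% limit of Dixon's ratio of gap to range for 4 samples. It was the only one of 52 chains to do so in that group. Chance alone would place about 1 in 20 groups past this limit.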

How the results depend on the processing

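Among the results for single named genes, 1090 alternative values kept their direction and side of the threshold, 96 lost a call, 2 gained one and none reversed. Among the main results, the counts called and the class medians, 234 alternative values stayed and 65 moved past the limit used for each. The genes called at the low dose, 0 by edgeR, numbered 17 by the DESeq2 Wald test, 2 by limma on log2(FPKM + 1), 9 in separate fits and 1 when the deepest library of each group of the 2nd set was left out, a setting chosen after seeing the data. The 112 genes of the high dose became 69 with at least 1 CPM in every library, 281 by DESeq2, 4 in separate fits and 70 without the 2 libraries of the 1st set highest in Col1a1, also chosen after seeing the data. Chains called at the high dose, 1 by edgeR, were 2 by DESeq2 and 0 by limma with either pseudocount, in separate fits and without the libraries highest in Col1a1. Chains called for the mean response, also 1, were 2 by DESeq2 and without the deepest libraries, and 0 by limma with either pseudocount and without the libraries highest in Col1a1. Medians at the high dose moved to 0.0515 (fibrillar) and 0.0334 (basement membrane) in limma on log2(FPKM + 1), and to -0.0465 (fibrillar), 0.0565 (basement membrane) and -0.30 (other) without the deepest libraries. With the multiplexins and Col7a1 counted as basement membrane, that median was 0.13. The cause of these shifts was not tested.

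Leaving out each library in turn, genes called ran from 0 to 2 at the low dose and from 21 to 138 at the high dose. Chains called ran from 0 to 2 at the high dose, from 0 to 2 for the mean and from 19 to 36 between controls, and stayed at 0 at the low dose and for the difference. Low-dose medians ran from -0.21 to 0.01 (fibrillar), -0.15 to -0.04 (basement membrane) and -0.30 to -0.12 (other). High-dose medians ran from 0.0451 to 0.51 (fibrillar), 0.0383 to 0.25 (basement membrane) and -0.12 to 0.18 (other).

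Replicate numbers showed no consistent pairing of the samples. Same-numbered libraries had correlations of deviations of 0.00424, 0.0583 and 0.0117 in the 1st set and 0.134, -0.151 and -0.341 in the 2nd. A control of another number correlated more highly except for replicate 2 of the 1st set, where the highest other value was -0.0159. With so few libraries these values cannot exclude pairing. With the replicate block, which left 4 residual degrees of freedom, 5 genes were called at the high dose, and 0 chains were called at either dose, for the difference or for the mean. The block could not be fitted for the controls between sets, nor separate fits for any contrast across sets. Depth of 13.03 to 26.99 M counts limited the chains with few counts.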
